A study of Mus musculus with 4 samples.

Results

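The genes described here encode the proteins of the cytosolic ribosome, in bone marrow cells that the labels name pro-B lymphocytes. Markers of other blood cell types were also above background on these arrays, as given below. Members were the probe sets of the array whose only gene symbol begins with Rpl or Rps and a number, or is Rplp0, Rplp1, Rplp2 or Rpsa. Pseudogene symbols ending in -ps and the Rps6k kinases were left out. This gave 63 of the 19937 genes with a probe set of a single symbol, and 195 of the 34760 probe sets in the deposited table. The small subunit (40S) has 70 of them for 21 genes, the large subunit (60S) has 115 for 33 genes, and the remaining 10 belong to 9 paralogs and related genes. Among these 9 is Rps19bp1, which encodes no ribosomal subunit. RNA of wild-type C57BL/6 mouse B220+ cKit+ bone marrow cells was hybridized to 4 Affymetrix Mouse Gene 1.0 ST arrays from 300 ng of RNA each. The arrays are named replicates 1 to 4, and they carried no treatment, transgene or deletion that the labels name. The 4 arrays form a single group, so there is no contrast between conditions. Separate mice are not named for the replicates.

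Each ribosome is built from a small subunit, which reads the mRNA, and a large subunit, which joins amino acids. Every subunit protein is needed in a fixed proportion to the rRNA, and the genes for them are transcribed together in growing cells. Their mRNAs begin with a C followed by a run of pyrimidines, the terminal oligopyrimidine (TOP) motif, through which mTOR signalling and the binding protein LARP1 control their translation. Ribosomal protein genes have left many processed pseudogenes in mammalian genomes. Pro-B cells divide in response to interleukin-7 before and during heavy-chain rearrangement, and haematopoietic precursors are known to be sensitive to loss of single ribosomal proteins, as in Diamond-Blackfan anaemia.

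The start of the transcript carries the feature that most of these genes are known for, so the windows that hold it are printed first. Promoter sequences of RefSeq (build GRCm38.p6) were listed for 51 of the 63 genes, in 60 windows of 250 bases before and 50 bases after an annotated start. In 10 of the 60 windows (16.7%) a C stood exactly at the annotated start with at least 4 pyrimidines after it, against 823 of 32851 windows (2.51%) over all genes. A run of this kind beginning within 10 bases of the annotated start was found in 51.7% of the member windows and in 30.7% of all windows. The examples below give 10 bases before and 20 bases from the annotated start, 5′ to 3′ along the transcript, with the C and its unbroken pyrimidine run in capitals.
Rps6, chr4:86857348-86857377, minus strand: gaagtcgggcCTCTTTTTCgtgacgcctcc
Rps10, chr17:27635225-27635254, minus strand: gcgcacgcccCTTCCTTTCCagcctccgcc
Rps15a, chr7:118116128-118116157, minus strand: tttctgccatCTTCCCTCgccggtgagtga
Rps18, chr17:33955646-33955675, minus strand: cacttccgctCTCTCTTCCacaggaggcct
Rpl14, chr9:120571507-120571536, plus strand: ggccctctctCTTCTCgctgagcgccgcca
Rpl28, chr7:4792955-4792984, plus strand: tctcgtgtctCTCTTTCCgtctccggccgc
Rpl38, chr11:114668570-114668599, plus strand: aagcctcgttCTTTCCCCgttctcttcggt
Rplp2, chr7:141447641-141447670, plus strand: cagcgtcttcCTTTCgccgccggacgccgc
Rps6, the subunit protein phosphorylated by the S6 kinases, Rps10, Rps15a and Rps18 belong to the small subunit. Rpl14, Rpl28, Rpl38 and the stalk protein gene Rplp2 belong to the large subunit. Rpl32l, among the paralogs and related genes, had a run at the annotated start too. The other 41 of the 51 genes, such as the paralog Rpl7l1, had none exactly at that base. Counted within 10 bases of the start, 29 of the 51 genes had a run. Beginning within 10 bases, a run was in 60.0% of the windows of paralogs and related genes and in 50.0% of those of subunit genes. Both paralog windows are shown next.
Rpl32l, chr10:20208429-20208458, plus strand: aaatgaccagCTTCTTCCTTggtgctgcct
Rpl7l1, chr17:46782637-46782666, minus strand: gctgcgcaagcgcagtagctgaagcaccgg

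Other short motifs were counted on both strands of the same 60 windows. The ETS-factor motif CCGGAAG, bound by GABPA, was in 20 windows (33.3%), against 8.86% of all windows. The palindrome CTCGCGAG, which reads the same on both strands, was in 8 windows of 7 genes (13.3%), against 0.919% of all windows. It is shown in capitals within 30 bases for 5 of those genes.
Rps28, chr17:33824543-33824572, minus strand: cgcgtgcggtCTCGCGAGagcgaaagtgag
Rps19, chr7:24884556-24884585, plus strand: tttagccgctCTCGCGAGcactccgaaatc
Rpl12, chr2:32961649-32961678, plus strand: gccagcggttCTCGCGAGagctgagctttt
Rpl26, chr11:68901531-68901560, plus strand: ctccgagactCTCGCGAGatctcgcggcaa
Rpl27a, chr7:109519163-109519192, plus strand: cgcctgctacCTCGCGAGacttcgtgagct
In Rps28, a protein of the mRNA exit side of the small subunit, the palindrome began at the annotated start itself. In Rps19, the gene most often mutated in Diamond-Blackfan anaemia, it began 26 bases before the nearer of the annotated starts. The distances for Rpl27a, Rpl26 and Rpl12, all of the large subunit, were 22, 25 and 53 bases before the start. The E-box CACGTG was in 11.7% of the member windows and 7.15% of all windows, and the YY1 motif AAGATGGC in 5.0% and 2.75%. The TATA box TATAAA was in 6 member windows and in 13.6% of all windows, and CCAAT in 28.3% and 37.4%. A letter match is not a bound site, and some genes have several annotated starts and so several windows.

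Almost all ribosomal protein probe sets carried signal. Background was set on each array from 1246 probe sets for odorant, vomeronasal and taste receptors, genes taken as silent in lymphocytes. Their 95th percentile was the line, at a log2 value of 6.53 to 6.62. A probe set above its line on all 4 arrays was called above background. This held for 185 of the 195 members, for 61 of the 63 genes, and for 60.0% of all probe sets. By subunit it held for 69 of 70 probe sets of the 40S and 108 of 115 of the 60S. Of the paralogs and related genes, 8 of 10 passed. The study's methods name a filter on low expression, but the deposited table still held values down to 2.27. Mitochondrial ribosomal proteins, which form a separate ribosome, passed in 83 of 85 probe sets, and translation initiation factors in 56 of 58.

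The 10 probe sets not above background were of several kinds. Rpl39l and Rpl3l, paralogs known for their use in testis and in striated muscle, were below the line on all arrays, with log2 means of 5.12 ± 0.11 and 6.00 ± 0.16 (SD, n = 4). They were the 2 genes with no member above background. Another 6 probe sets below the line on every array belonged to Rpl19, Rpl21, Rps12, Rpl5, Rpl7a and Rpl27a, each of which had other probe sets above it. The remaining 2 crossed the line on some arrays. Rpl36 probe set 10378783 had log2 values of 5.20, 6.04, 8.08 and 8.26 on replicates 1 to 4, an SD of 1.51. Its values were low on replicates 1 and 2 and high on replicates 3 and 4. The other 7 Rpl36 probe sets were above background, with SDs of 0.03 to 0.29. Rpl10a probe set 10407535 had 6.06, 7.02, 7.40 and 6.99 and missed the line only on replicate 1. Just inside the line stood Rpl10l, another testis paralog, at 6.99, 6.66, 6.99 and 6.65, which cleared the line by 0.04 on its nearest array.

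Several probe sets per gene are the rule for these genes and limit what a value can be assigned to. Only 25 genes had a single probe set, while 38 had several, together 170 probe sets, with up to 10 for Rpl23a. Within each of the 38 genes the probe sets shared an annotated accession. Near-identical pseudogene copies can hybridize to the same probes, and the positions of the probe sets were not analysed here, so it is uncertain which copy a probe set reports. A further 209 probe sets name a ribosomal protein gene beside other symbols and were not members, and 184 of them were above background. The genes reached only through such shared probe sets were 20, among them Rpl3, Rpl11, Rps24 and Rps26.

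The ribosomal protein probe sets differed between arrays in a common direction. The shift of a probe set on an array is its log2 value there minus its mean over the remaining 3. On replicate 3, 155 of the 185 members above background had a positive shift, and the median was 0.17. Over all probe sets above background 50.0% were higher there, with a median shift of 0.00. On replicate 1, 37 of 185 were higher (53.5% of all probe sets) and the median shift was -0.11. On replicate 2, 61 were higher (49.3% of all) with a median of -0.06, and on replicate 4, 100 were higher (47.0% of all) with a median of 0.01. Replicate 3 gave the highest of the 4 values for 112 members (22.1% of all probe sets), and replicate 1 gave the lowest for 82 (26.7% of all). The median log2 value of the 185 members was 11.04, 11.07, 11.28 and 11.21 on replicates 1 to 4. Fewer cells of a type and less RNA per cell cannot be told apart in such bulk samples.

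**Figure D1:**
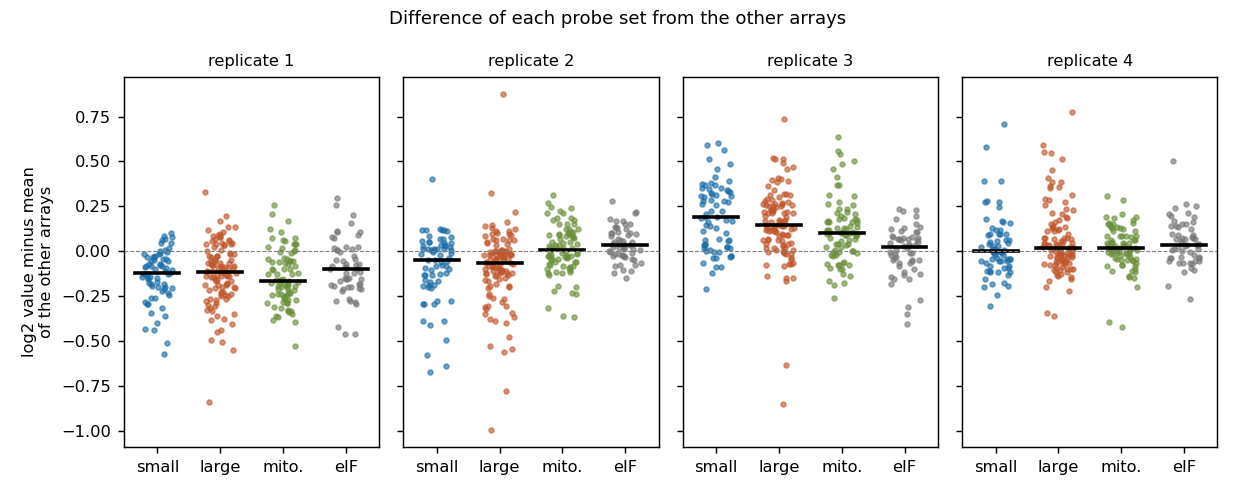
Shift of each probe set above background (log2 value minus the mean over the remaining 3 arrays) on each of the 4 arrays, for 69 probe sets of the small subunit (small, 40S), 108 of the large subunit (large, 60S), 83 of mitochondrial ribosomal proteins (mito.) and 56 of initiation factors (eIF); points are probe sets and black bars medians. On replicate 3 the medians of the 40S and 60S were 0.19 and 0.15, and that of the initiation factors was 0.03.

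The shifts had the same direction in both subunits. On replicate 3, 57 of 69 probe sets of the 40S and 90 of 108 of the 60S were higher, with medians of 0.19 and 0.15. On replicate 1, 59 of the 40S and 83 of the 60S were lower, with medians of -0.12 and -0.11. All 8 paralog and related probe sets above background were higher on replicate 3, with a median of 0.20, beside 155 of all 185 members. Of the 8, Rps27l, the p53-responsive paralog of Rps27, had 11.17, 11.40, 11.52 and 11.42. The 184 shared probe sets above background had a median of 0.08 on replicate 3, with 144 of them higher. The mitochondrial ribosomal proteins had medians of -0.16 on replicate 1 and 0.10 on replicate 3, where 61 of 83 were higher. The initiation factors had -0.10 on replicate 1 and 0.03 on replicate 3, where 30 of 56 were higher.

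Xist set replicate 3 apart. Xist, the RNA that coats the inactive X chromosome, was at log2 values of 13.17, 13.04, 5.48 and 13.05 on replicates 1 to 4, so its signal was below background on replicate 3 alone. Replicate 3 was thus not a repeat of the RNA of another array. The lowest correlation between any 2 arrays was 0.986 and the highest 0.989, across all probe sets, and the array medians lay between 7.31 and 7.35. The X-linked ribosomal protein genes among the members were Rps4x, Rpl10 and Rpl36a. Each taken at its probe set with the highest mean, they had shifts of 0.28, 0.02 and -0.04 on replicate 3, a median of 0.02. With the same choice the median over the 61 member genes above background was 0.14. Over all their probe sets, those higher on replicate 3 were 4 of 4 for Rps4x, 4 of 5 for Rpl10 and 1 of 2 for Rpl36a. The shifts ran from -0.01 to 0.31 for Rpl10 and from -0.04 to 0.22 for Rpl36a. The part of the Xist difference in the members' shifts was not tested.

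Cell type markers differed between the same arrays. All 10 erythroid markers with a probe set were above background and all were lower on replicate 1, with a median shift of -1.46. All 10 were higher on replicate 3, with a median of 0.39, and all 10 on replicates 2 and 4, with 0.66 and 0.38. A shift is taken against the other arrays, so low values on replicate 1 raise the shifts on the rest. The summed level of the erythroid markers (log2 of the summed linear values) was 13.90, 15.00, 14.83 and 14.81 on replicates 1 to 4. Of 15 granulocyte and monocyte markers, 15 were above background, 12 were higher on replicate 3 with a median of 0.20, and 11 on replicate 4 with 0.27. Their summed level ranged from 16.28 to 16.56 and was above that of the early B-cell markers, given next, on every array. Of 15 early B-cell markers, 14 were above background, with a median shift of 0.59 on replicate 1 and -0.53 on replicate 4. On replicate 3 their median shift was 0.12, with 8 of the 14 higher, and their summed level was 14.64 to 15.41. Of 8 pre-B markers 7 were above background, with shifts of 0.68 on replicate 1 and -0.76 on replicate 4 and a summed level of 13.68 to 14.10. On replicate 3 their median shift was 0.05, with 5 of the 7 higher. All 5 megakaryocyte markers were above background, with shifts of 0.28, 0.22, -0.07 and -0.41 on replicates 1 to 4 and a summed level of 10.46 to 12.07. Of 9 T- and NK-cell markers 7 were above background (summed level 12.99 to 13.19), of 7 mast cell and basophil markers 3 (10.53 to 10.84), and of 8 stromal and endothelial markers 5 (10.76 to 10.97). Their part in the ribosomal protein shifts was not tested.

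Within the small subunit the shift on replicate 3 ran through all the probe sets of some genes. Rps28 had 5 probe sets and all were higher on replicate 3, by 0.33 to 0.56. Its probe set 10524415 had log2 values of 9.30, 9.22, 9.85 and 9.35, and the other 4 gave the same order of replicate 3 above the rest. All 3 probe sets of Rps7, a protein known to bind Mdm2, were higher on that array by 0.31 to 0.37. All 4 of Rps4x were higher by 0.28 to 0.34, and all 4 of Rps29 by 0.13 to 0.26. Rps3, which lies at the mRNA entry, had 11.41, 11.45, 11.88 and 11.63. Rps15, a protein of the head of the subunit near the decoding site, differed from these. None of its 3 probe sets was higher on replicate 3, and their shifts were -0.08 to -0.03. Rps6 was mixed, with 4 of 7 higher.

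In the large subunit, too, some genes were higher on replicate 3 in every probe set. All 4 probe sets of Rpl7 were higher on replicate 3, by 0.25 to 0.38, and all 3 of Rpl6 by 0.21 to 0.26. All 8 probe sets of Rpl9 and all 7 of Rpl36 above background were higher, as were all 8 of Rpl27a. Rpl5, which carries 5S rRNA with Rpl11 and binds Mdm2, had 12.53, 12.44, 12.84 and 12.89 at its probe set 10344931. Its 3 probe sets above background were higher on replicate 3 by 0.13 to 0.22. In the stalk that recruits elongation factors, the acidic protein gene Rplp2 had 8.11, 8.25, 8.61 and 8.27. Both probe sets of its partner Rplp1 were higher on replicate 3 as well, by 0.17 and 0.28. Rplp0, the scaffold that the acidic proteins bind, went the other way: its 2 probe sets had shifts of -0.07 and -0.07. Rpl21 was split, with 4 of 8 higher and shifts from -0.15 to 0.51. In all, 21 of the 38 genes with more than 1 probe set above background had all of them higher on replicate 3, against 32.1% of 624 other genes. With at least 3 probe sets it was 15 of 28 genes, against 14.5% of 117 other genes. Probe sets of a gene share their target and are not independent measurements.

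**Figure D2:**
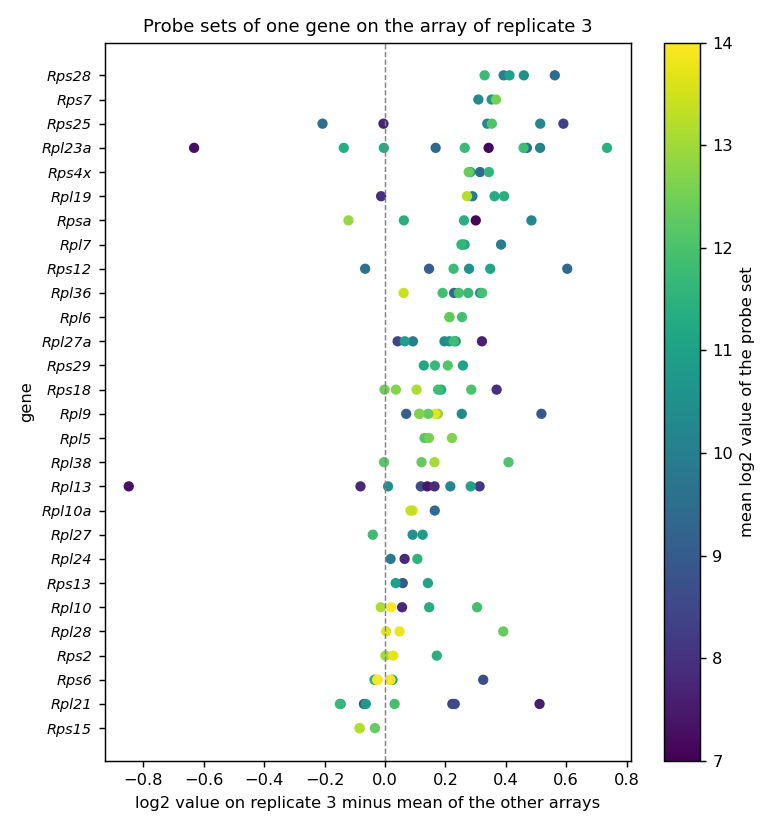
Shift on replicate 3 (log2 value minus the mean over the remaining 3 arrays) of every probe set above background, for the 28 genes with at least 3 of them, ordered by the gene's median; each point is a probe set and its colour is the mean log2 value. All 5 points of Rps28 lie above 0 and all 3 of Rps15 below 0.

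The size of the shift varied with the level of the probe set. Among 75 members with a mean log2 value of 10 to 12, 68 were higher on replicate 3, with a median shift of 0.23. Over the 4196 probe sets of that level 53% were higher, with a median of 0.01. Below it, 14 of 20 members under 8 were higher (46.1% of all at that level), with a median of 0.15. At 8 to 10 it was 34 of 38 (51.4% of all), with a median of 0.21. Above it, at 12 to 13, it was 21 of 27 (55.3% of all), with a median of 0.13. At 13 and over it was 18 of 25 (52.7% of all), with a median of 0.03 beside 0.01 over all 245 probe sets there.

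The spread between arrays varied with level too. The median SD of the 185 members was 0.135, and over all probe sets above background it was 0.129. Each SD was set against the SD that limma fits at the same level to all probe sets above background. Of the 185 members 72 were below that fitted SD, while 52.1% of all probe sets above background were. At a level of 10 to 12 it was 18 of 75 members, with a median SD of 0.15 beside a fitted 0.10. At 13 and over it was 21 of 25, with a median SD of 0.060, and 169 of all 245 probe sets there were below the fitted SD too. Without replicate 3 the count of 72 became 114 of 185, with 55.8% of all probe sets below, and the median SD of the members was 0.094. By role, 26 of 69 probe sets of the 40S and 42 of 108 of the 60S were below the fitted SD. It was 46 of 83 for mitochondrial ribosomal proteins and 36 of 56 for initiation factors. Spearman's rho between level and SD was -0.47 across the members and -0.17 across all probe sets above background. Probe sets of an array share its preparation and are not independent.

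**Figure D3:**
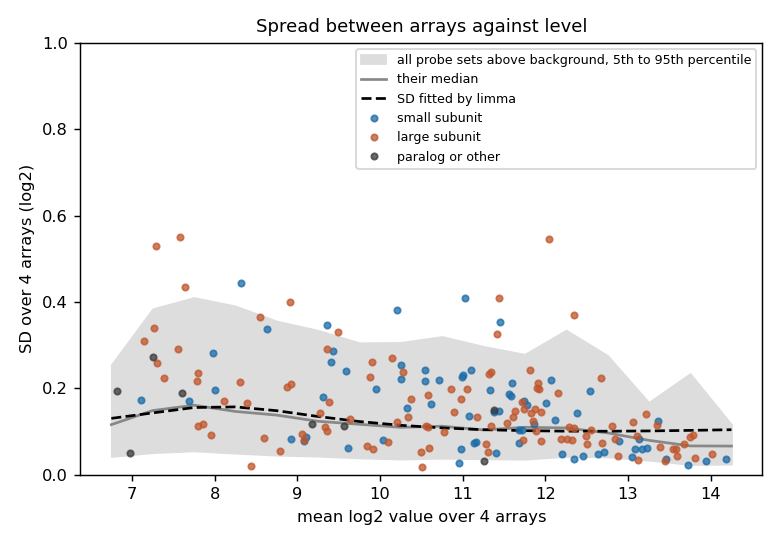
SD over the 4 arrays (log2) against the mean log2 value, for the 185 members above background coloured by subunit; the grey band is the 5th to 95th percentile and the grey line the median of all 20869 probe sets above background, and the dashed line is the SD fitted by limma. At a level of 13 and over 21 of 25 members lie under the dashed line, and at 10 to 12 it is 18 of 75.

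The 10 members with the largest SD all belonged to genes with several probe sets, as did 170 of the 195 members. Rpl21 probe set 10440467 had log2 values of 7.50, 6.84, 7.97 and 8.03, an SD of 0.55. Rpl38 probe set 10509560 had 11.42, 11.79, 12.36 and 12.63, an SD of 0.55. Both were high on replicates 3 and 4. The other 3 probe sets of Rpl38, a protein known for its part in translation of Hox mRNAs, had SDs of 0.08 to 0.12. Rpl13 probe set 10415660 ran in another direction, at 7.32, 7.94, 6.65 and 7.23, lowest on replicate 3. Rps25 probe sets 10457920 and 10542722 had SDs of 0.44 and 0.38, and both were lowest on replicate 2 and highest on replicate 3. Rps13 probe set 10565434, at 10.76, 10.66, 11.13 and 11.56, was highest on replicate 4. The other members of the 10 with the largest SD were probe sets of Rpl27a, Rpl23a, Rpl9 and Rpl28, with SDs of 0.37 to 0.44. For 4 of the 10 the SD fell by the largest share when a single array was left out. It stayed above the SDs fitted to them on all 4 arrays, which were 0.10 to 0.15. These members were picked for a large SD, so that comparison does not show how much of the spread rested on a single array. Without replicate 2 the SD was 0.29 for Rpl21 probe set 10440467 and 0.24 for Rpl27a probe set 10363479. Without replicate 3 it was 0.22 in place of 0.41 for Rpl23a probe set 10371269, and without replicate 4 it was 0.25 in place of 0.41 for Rps13 probe set 10565434.

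Steady members were found in some of the same genes. Rpl13 probe set 10472587 had 10.53, 10.49, 10.52 and 10.51, the smallest SD of the members, at 0.019. Rps2, a protein of the mRNA entry, had 13.69, 13.73, 13.74 and 13.73 at its probe set 10606744, and Rps13 had 10.92, 10.97, 10.99 and 10.96 at probe set 10573693. Rpl7l1, a paralog of Rpl7 that acts in ribosome assembly, had 11.29, 11.22, 11.28 and 11.26, an SD of 0.03. Across the 185 members, 64 had an SD under 0.1 (33.7% of all probe sets above background) and 18 an SD over 0.3 (8.75% of all).

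The shifts were also set out by the start sequence. The 29 probe sets above background of the 10 genes with a pyrimidine run exactly at the annotated start had a median shift of 0.07 on replicate 3. Of these probe sets 22 were higher there, and the median SD was 0.109. For the 113 probe sets of the 41 genes listed without a run there, the median shift was 0.15, with 97 higher, and the median SD was 0.140. For the 43 probe sets of the 12 genes with no window listed, the median shift was 0.23 and the median SD 0.152. The difference between these sets was not tested.

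Genes that make, transport or regulate ribosomal proteins were described from lists, each gene at its probe set with the highest mean. Fau, whose product is cut to release the small-subunit protein S30, lies outside the symbol rule. It had 12.92, 12.90, 13.16 and 12.94, highest on replicate 3. The other 13 TOP mRNAs listed with a probe set, those of elongation factors and related proteins, were all above background, and 7 were higher on replicate 3, with a median shift of 0.02 and a median SD of 0.068. Among them Npm1, the nucleolar chaperone, had 11.48, 11.68, 11.75 and 12.02. Eef1b2, an exchange factor for elongation factor 1A, had 11.92, 12.10, 12.33 and 12.11. Eef2, the translocase of elongation, had 13.44, 13.45, 13.45 and 13.38, the smallest SD of that list.

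Ribosome assembly genes had their largest median shift on replicate 1. Of 38 biogenesis genes above background, 1 was higher on replicate 1, and the median shift there was -0.24. On replicates 2, 3 and 4 the medians were 0.08, 0.07 and 0.09. The gene not lower on replicate 1 was Tcof1, the treacle protein of rRNA transcription, at 9.81, 9.76, 9.85 and 9.76. Gar1, of the pseudouridylation particles, had 9.57, 9.61, 10.21 and 9.76, and Gnl3, the nucleolar GTPase nucleostemin, had 9.87, 10.35, 10.17 and 10.48. Of 15 genes of RNA polymerase I and rRNA synthesis, 2 were higher on replicate 1, with a median of -0.15, and 12 on replicate 3, with a median of 0.03. Polr1b, the second largest polymerase I subunit, had 10.33, 10.74, 10.52 and 10.57. Taf1d, a subunit of the polymerase I selectivity factor, had 11.93, 12.25, 12.21 and 12.17. Ubtf, the upstream binding factor of rRNA genes, had 11.05, 11.02, 11.09 and 11.11.

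**Figure D4:**
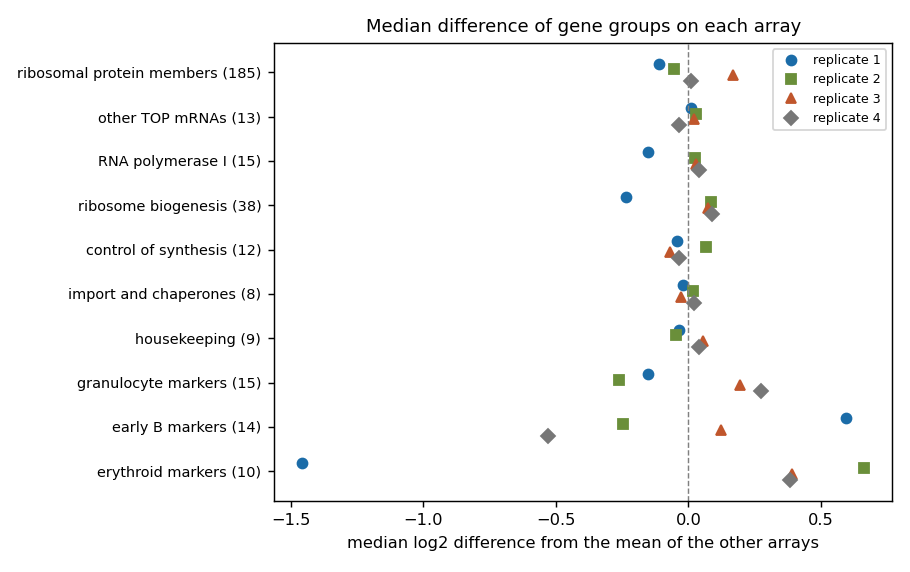
Median shift (log2) of gene groups on each of the 4 arrays, with the number of probe sets or genes above background in brackets; each symbol is an array. The ribosomal protein members were highest on replicate 3 at 0.17, ribosome biogenesis genes were lowest on replicate 1 at -0.24, and the erythroid markers were lowest on replicate 1 at -1.46. Members are taken over all their probe sets above background, the other groups at the probe set with the highest mean per gene. With that choice the members' medians were 0.14 on replicate 3 and -0.08 on replicate 1.

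Regulators of ribosome synthesis had a median shift of the opposite sign on replicate 3. Of 12 genes of TOP and ribosome synthesis control, 4 were higher on replicate 3, with a median shift of -0.07. Mdm2, the ubiquitin ligase that free Rpl5 and Rpl11 inhibit, had 10.25, 9.85, 9.73 and 9.98, lowest on replicate 3. Larp1, the TOP-binding repressor, had an SD of 0.17 and was lower on replicates 1 and 3 than on the other two. Rps6kb2, an S6 kinase, had 9.49, 9.48, 9.42 and 9.39. Of 8 import and chaperone genes, 3 were higher on replicate 3, with a median of -0.03. Ipo7, an importin for ribosomal proteins, had 11.14, 11.16, 11.14 and 11.18. Another importin gene, Ipo5, had 10.64, 10.86, 10.95 and 10.90, lowest on replicate 1. Nap1l1, a histone chaperone of the same list, had 11.47, 11.33, 11.26 and 11.28, highest on replicate 1. Of 9 housekeeping genes, 7 were higher on replicate 3, with a median of 0.05. Their SDs ran from 0.03 for B2m, the light chain of MHC class I, to 0.12 for Hprt, an enzyme of purine salvage, and Ywhaz, a 14-3-3 protein, had 0.10. Of the 12 genes listed for Diamond-Blackfan anaemia, 6 were members. All 6 were above background and higher on replicate 3, with a median of 0.14. With the same choice of probe set, 54 of 61 member genes above background were higher there, also with a median of 0.14. Of the 6, Rps10 had 12.62, 12.65, 12.68 and 12.57, and Rps7 had 12.39, 12.42, 12.82 and 12.53.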

How the data were processed

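RNA of the 4 samples was measured on Mouse Gene 1.0 ST arrays. The authors deposited log2 intensities per probe set, made by RMA. The methods then name a filter on low expression, which the low values still in the table do not show. The set of arrays normalized together is not known here. Each column carried the name of its sample (0 did not). Of the probe sets, 21640 had 1 gene symbol, 1321 several and 11799 none listed. All 63 member genes matched RefSeq by gene identifier.

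Values were used as deposited. Fitted SDs came from limma's trended empirical Bayes fit over all probe sets above background, tested on simulated data. Motifs were sought in 32851 promoter windows, and the palindrome is the core of a longer form that was counted first. Named members were the 10 with the largest and the 5 with the smallest SD above background. From each pathway list the 2 genes with the largest SD and the one with the smallest were named. Other named members were chosen after their values were seen. The members and lists were chosen with earlier results of these data known. With a single group no comparison between conditions was tested, and the number of arrays limits the precision. Alternatives were other background lines, normalizations, an array left out and a probe set per gene. Fits were run in limma 3.58.1 under R 4.3.3, and tables and plots were made with pandas 2.3.3, matplotlib 3.10.9 and numpy 2.4.6 in Python 3.11.15.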

Additional observations from a re-analysis of the deposited data

Results flagged for a closer look

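In 6 members a single array stood apart from the other 3 by Dixon's ratio, past its 95% critical value for 4 samples. Chance flags about 1 in 20 groups of values. Of all probe sets above background 5.35% were flagged, and of the members above background 3.24%. On replicate 3, Rps7 probe set 10461389 was high at 10.55 beside a mean of 10.24 on the others, and Rps28 probe set 10479809 at 10.25 beside 9.85. Rpl27a probe set 10474669 was also high there, at 8.47 beside 8.43. On replicate 2, Rpl10 probe set 10593320 was low at 10.98 beside 11.46, while Rpl36a probe set 10601755 was high at 12.94 beside 12.85. On replicate 4, Rpl7a probe set 10453632 was high at 7.69 beside 7.18. Leaving out the array that stood apart lowers the SD by the way these members were picked, so the fall is no further evidence. The SD fell from 0.238 to 0.0225 for Rpl10, from 0.259 to 0.0398 for Rpl7a and from 0.199 to 0.0387 for Rps28. For Rps7 it fell from 0.155 to 0.0176, for Rpl36a from 0.0445 to 0.00749 and for Rpl27a from 0.0212 to 0.00411.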

How the results depend on the processing

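With 1 probe set per gene (the one with the highest mean), 61 of 63 genes were above background, 32 of 61 were below the fitted SD, 54 of 61 were higher on replicate 3 and 50 of 61 lower on replicate 1. Measured as the range rather than the SD, the median spread was 0.301, against 0.287 over all probe sets. Without replicate 3, 114 members were below the fitted SD in place of 72. Leaving out each array in turn gave 185 to 186 members above background, 73 to 114 below the fitted SD and a median SD of 0.094 to 0.143. The median shift was then -0.15 to -0.06 on replicate 1, -0.10 to -0.02 on replicate 2, 0.13 to 0.20 on replicate 3 and -0.03 to 0.08 on replicate 4. Members higher on replicate 3 were then 147 to 160, and members lower on replicate 1 were 125 to 151. The counts higher on replicate 3 and lower on replicate 1, and their alternatives, were chosen after seeing the data. The other 87 values moved by less than 1.5 times (counts and median SDs) or by less than 0.12 (median shifts, the SD of the 4 medians). The median shifts on replicates 1, 2 and 4 were themselves smaller than 0.12 in size, so for them this limit could not show a loss of the shift. That on replicate 4 changed sign, from 0.01 to -0.03 without replicate 1. Of 140 values for the SDs of 20 named members, 20 moved by over 1.5 times: 14 of 80 with an array left out and 6 of 60 under another normalization, where Rps2, Rps13 and Rpl27a, among the smallest SDs, rose to 0.032 to 0.043. No paired analysis was possible because the series holds a single group and no contrast.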
